A study of Mus musculus with 6 samples.

Results

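The cytosolic ribosomal protein genes encode the protein part of the ribosome, and 84 of them were followed here in cultured mouse spermatogonial stem cells, out of 20284 genes named on the microarray. Members were taken by name: a symbol of Rpl or Rps followed by a number, with an optional letter ending, together with Rplp0, Rplp1, Rplp2 and Rpsa. Genes ending in -ps and the Rps6k kinases, which only share the first letters, were left out. The set holds 52 genes of the large subunit and 32 of the small subunit. Among these are 8 gene copies, namely Rpl3l, Rpl7l1, Rpl10l, Rpl22l1, Rpl36al, Rpl39l, Rps27l and Rps4l. RefSeq lists Rps4l as a transcribed pseudogene.

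The study asked what inhibition of somatic angiotensin-converting enzyme does to these stem cells. Captopril, an inhibitor of that enzyme, was given at 0.01 M for 24 h to 3 cultures, and sterile water labelled with the same 0.01 M was given to 3 control cultures, in both cases 4 to 5 days after passage. All 6 cultures came from dissociated mouse testis cells that had been plated on 0.2% gelatin, passaged and moved onto mouse embryonic fibroblast feeders, and no strain, age or genotype is named in the labels. The labels call them independent experiments and number them 2, 3 and 4 in each group, without saying whether each came from its own animal, so the p-values below measure the spread between these samples. Total RNA was amplified, labelled with Cy3 and hybridised to 1 array per culture.

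Ribosomal protein genes are among the most strongly transcribed genes of any dividing cell, and every ribosome needs about equal numbers of its proteins. Many of their messenger RNAs begin with a cytosine followed by a run of pyrimidines, the TOP motif (terminal oligopyrimidine tract), through which the mTORC1 kinase controls how well they are translated. This control acts largely on translation, which an array of messenger RNA does not measure. In spermatogonial stem cells, mTORC1 activity and the rate of protein synthesis are known to change as cells leave self-renewal for differentiation.

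Start sites of members with high and with negative values are shown first, because the TOP motif and promoter elements are what these genes are known to share. Each window is from RefSeq on build GRCm38.p6, with 40 bases before the annotated start and 20 from it onward. Capitals mark a TOP run at the start, the ETS-type element CCGGAAG or the TATA element TATAAA.
Rps21, chr2:180257339-180257398, plus strand: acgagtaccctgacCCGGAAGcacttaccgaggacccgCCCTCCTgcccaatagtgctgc
Rps18, chr17:33955646-33955705, minus strand: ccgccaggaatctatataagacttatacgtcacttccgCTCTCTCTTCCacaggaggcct
Rpl35, chr2:39005112-39005171, minus strand: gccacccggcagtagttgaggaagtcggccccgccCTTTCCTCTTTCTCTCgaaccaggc
Rps12, chr10:23787190-23787249, minus strand: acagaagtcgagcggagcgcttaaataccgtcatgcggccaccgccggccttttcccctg
Rps2, chr17:24720023-24720082, plus strand: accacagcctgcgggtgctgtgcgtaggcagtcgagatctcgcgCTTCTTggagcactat
Rpl7l1, chr17:46782637-46782696, minus strand: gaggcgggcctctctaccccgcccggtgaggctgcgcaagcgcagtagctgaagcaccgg
Rpl3l, chr17:24727786-24727845, plus strand: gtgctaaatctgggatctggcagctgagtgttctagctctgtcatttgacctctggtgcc
Rps21, Rps18 and Rpl35, 3 of the members with the largest positive differences, carry a TOP run at the start, and so does Rps2, whose difference was negative. In Rpl35 the marked run lies inside a longer run of pyrimidines that begins further upstream. The window of Rps12 has no such run within reach of the annotated start by the rule used. The copies Rpl7l1 and Rpl3l have none either. Rpl21, Rps4l and Rpl3, also at the negative end, had no entry in the promoter table used here and are not shown.

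All 84 members were measured. Of their 173 probes, 170 were well above background on every array and none was saturated. Levels are log2 processed signals minus the 75th percentile of the same array, so a level of 0 equals that percentile. That percentile was 1875 to 3424 intensity units over the 6 arrays, and 52.2% to 60.5% of spots were well above background. Water replicate 3 stood apart: over 32380 probes it correlated with the rest at 0.88 to 0.89, where pairs of the remaining arrays reached 0.97 to 0.99. Values are therefore given for all 6 arrays and for the 5 arrays without water replicate 3, and disagreement between the probes of a gene is described on the 5 arrays. All arrays lay on 1 slide, with water replicates 2 and 3 in its first row and the other arrays in its second.

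With all 6 arrays, ribosomal protein genes differed little between captopril and water. Captopril minus water, the members had a median log2 fold change of 0.05, with 59 positive and 25 negative, against a median of −0.03 over the 14860 genes tested, of which 46.7% were positive. No member, and 0% of all genes, passed an adjusted p of 0.05 in limma, and the smallest adjusted p of a member was 0.589. At an unadjusted p under 0.05, 1 member (Rpl3l) passed, against 8.24% of all genes. The groups did not overlap for 1 member with captopril higher, Rpl3l, and for 2 with captopril lower, Rpl21 and Rps4l, where 10.0% of all genes were higher and 11.4% lower without overlap. Here and below, fewer cells of a type and less RNA per cell cannot be told apart, since each array measured a whole culture.

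Without water replicate 3, nearly the whole set lay on the positive side, by a small amount. The median log2 fold change of members was 0.27 (interquartile range 0.16 to 0.34, lowest −0.38, highest 0.64), and 78 of 84 (92.9%) were positive, against a median of 0.07 and 58.5% over all genes. Again no member passed an adjusted p of 0.05 in limma, a threshold that 0.619% of all genes passed, and the smallest adjusted p of a member was 0.168. At an unadjusted p under 0.05, 8 members passed, all with captopril higher, where 19.1% of all genes passed in either direction. The 3 captopril arrays were all above both water arrays for 42 members (50%), against 27.2% of all genes. They were all below for 2 members, Rpl21 and Rps4l, against 15.7% of all genes. The standard error of a member's log2 fold change was 0.14 to 0.28 with 5 arrays, so a difference of the size of the median came to less than 2 standard errors for every member.

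The array-by-array levels show where both medians come from. With each gene set to its median of the 6 arrays, the members' median level was −0.10, 0.49 and −0.24 on water replicates 2, 3 and 4. It was −0.04, 0.02 and 0.27 on captopril replicates 2, 3 and 4. Water replicate 3 was thus the highest array and captopril replicate 4 the next, while water replicate 4 was the lowest, and the groups overlapped as long as water replicate 3 was counted. Of the 84 members, 67 had their highest level of all 6 arrays on water replicate 3, as did 54.8% of all genes. Among the other 5 arrays, 67 members were highest on captopril replicate 4, as were 46.3% of all genes. On water replicate 4, 53 members were lowest, and the share of all genes lowest there is not given here.

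**Figure D1:**
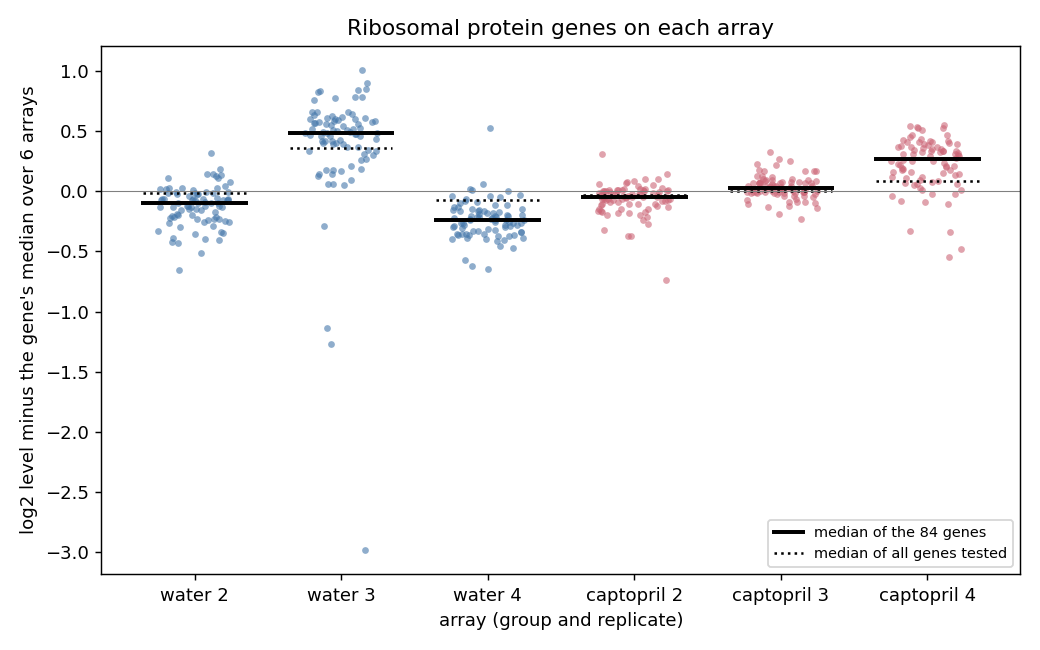
Log2 level of each of the 84 ribosomal protein genes on each array, minus the gene's median over the 6 arrays (points, blue for water and red for captopril), with the median of the 84 genes (solid line) and of all genes tested (dotted line). The solid lines stand at −0.10, 0.49 and −0.24 for water and at −0.04, 0.02 and 0.27 for captopril.

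Array brightness moved with these levels. Water replicate 3 and captopril replicate 4, the arrays highest for the members, had the lowest 75th percentiles, 1875 and 1885 intensity units, and water replicate 4, the lowest for the members, had the highest, 3424. The part of array brightness in the result was not tested. With captopril replicate 4 also left out, the median was 0.17 with 72 members positive, against 0.03 over all genes. Against water replicate 4 alone the captopril mean gave a median of 0.34 with 78 positive (all genes 0.11), and against water replicate 2 alone 0.20 with 68 positive (all genes 0.04). As a share of all summed signal, the members held 4.89%, 5.28% and 4.70% on water replicates 2, 3 and 4 and 5.11%, 5.27% and 5.49% on captopril replicates 2, 3 and 4. By that measure the captopril arrays lay above water replicates 2 and 4 and around water replicate 3.

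In the small subunit, the median log2 fold change without water replicate 3 was 0.28, with 29 of 32 members positive, and 0.03 with all arrays, with 20 positive. Rps21, a small protein of this subunit, had the largest difference. Its level was 2.87, 4.10 and 3.19 on water replicates 2, 3 and 4, and 3.54, 3.50 and 3.95 on captopril replicates 2, 3 and 4. The captopril arrays were above water replicates 2 and 4 and below water replicate 3. Without water replicate 3, its log2 fold change was 0.64 (SE 0.20), a 1.55-fold difference, with an adjusted p of 0.168 in limma. With it, the log2 fold change was 0.28 (SE 0.35) and the adjusted p 0.788.

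Rps12, Rps18, Rps14 and Rpsa shared this pattern. Rps12, a protein of the small-subunit head, was at 4.65, 5.55 and 4.72 on water replicates 2, 3 and 4 and at 5.08, 5.06 and 5.35 on captopril. Its log2 fold change was 0.48 (SE 0.16) without water replicate 3, with an adjusted p of 0.180 in limma, and 0.19 (SE 0.30) with it. Rps18, which sits in the head near the contact between the subunits, was at 3.83, 4.95 and 3.88 on water and at 4.15, 4.18 and 4.68 on captopril. The log2 fold change of Rps18 was 0.48 (SE 0.20) on 5 arrays and 0.11 on 6. On the probes used for these 4 genes, the 3 captopril arrays lay above water replicates 2 and 4 and below water replicate 3. Other probes did not always keep this order. Another probe of Rps18 was lowest on water replicate 3, at 2.59. So was another of Rpsa, at 0.52, which gave −0.70 on 5 arrays, while a further probe of Rpsa kept the order. On the other probe of Rps12, captopril replicate 2 (4.232) lay just below water replicate 4 (4.236).

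Rpsa, which also serves as a laminin receptor at the cell surface, was at 5.22, 5.91 and 5.32 on water and at 5.71, 5.51 and 5.82 on captopril, which gave 0.41 (SE 0.16) without water replicate 3 and 0.20 with it. Rps6, the substrate of the S6 kinases downstream of mTORC1, had a log2 fold change of 0.29 (SE 0.20) on 5 arrays and 0.01 on 6. Rps19, the gene most often mutated in Diamond-Blackfan anaemia, had 0.21 (SE 0.20) and 0.07. The X-linked Rps4x had 0.37 (SE 0.17) and 0.14. None of these passed the test.

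On the negative side of the small subunit stood Rps2, Rps4l and Rps27a. Rps2, a protein near the messenger RNA entry channel, was at 4.83, 4.70 and 4.47 on water and at 4.52, 4.51 and 4.47 on captopril, with a log2 fold change of −0.15 (SE 0.16) on 5 arrays and −0.17 on 6. Its groups overlapped through water replicate 4. Rps27a, made as a fusion with ubiquitin, had −0.05 (SE 0.14) and −0.30 (SE 0.28). The other probes of Rps27a gave 0.50 and −0.37 on 5 arrays, and 0.17 and 0.47 on 6.

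In the large subunit, the median was 0.26 without water replicate 3, with 49 of 52 members positive, and 0.05 with all arrays, with 39 positive. Rpl35, which lies at the exit of the nascent-chain tunnel, was at 4.99, 5.71 and 4.85 on water replicates 2, 3 and 4 and at 5.24, 5.24 and 5.65 on captopril. Its log2 fold change was 0.46 (SE 0.18) on 5 arrays, with an adjusted p of 0.238 in limma, and 0.20 (SE 0.30) on 6. Rpl13 had 0.34 (SE 0.18) and 0.27 (SE 0.23). The probe used for Rpl13 was at 4.88, 5.09 and 4.87 on water replicates 2, 3 and 4. On this probe water replicate 3 stood out less than for most members. The other probes of Rpl13 gave 0.25 and 0.19 on 5 arrays, and 0.14 and −0.01 on 6.

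Rpl5 and Rpl11, which form a complex with the ribosomal 5S RNA and bind Mdm2 when ribosome assembly fails, had log2 fold changes of 0.34 (SE 0.16) and 0.25 (SE 0.21) on 5 arrays. Both were close to 0 on 6 arrays, at 0.03 and 0.00. The X-linked Rpl10, needed late in large-subunit maturation, had 0.30 (SE 0.20) and 0.02. The acidic stalk, which recruits the translation factors with GTPase activity, is built from Rplp0, Rplp1 and Rplp2. These had 0.21 (SE 0.24), 0.07 (SE 0.18) and 0.32 (SE 0.18) on 5 arrays, and 0.05, −0.31 and 0.08 on 6.

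Rplp1 was at 3.85, 5.10 and 4.04 on water and at 4.13, 4.18 and 3.75 on captopril. Water replicate 3 was its highest array, and captopril replicate 4 its lowest, unlike most members. Rpl21 had the most negative value of the set in both comparisons. It was at 4.42, 4.51 and 4.36 on water replicates 2, 3 and 4 and at 4.23, 4.07 and 3.75 on captopril. All 3 captopril arrays were below all 3 water arrays, and the log2 fold change came to −0.41 (SE 0.23) on 6 arrays, at an adjusted p of 0.628 in limma, and to −0.38 (SE 0.18) on 5, at 0.312. Rpl3, which helps form the peptidyl transferase centre, had −0.06 (SE 0.28) on 5 arrays and −0.26 (SE 0.33) on 6.

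The 8 copies had a median of 0.22 on 5 arrays with 6 positive, and 0.11 on 6 arrays with 5 positive. Rpl3l, the form of Rpl3 known from striated muscle, was at −0.44, −1.64 and −0.99 on water replicates 2, 3 and 4 and at −0.31, −0.15 and 0.05 on captopril. Here the captopril arrays were above every water array, by 0.89 (SE 0.34) on 6 arrays and 0.58 (SE 0.21) on 5, at adjusted p of 0.589 and 0.215 in limma. Rpl3l and Rpl7l1 are the only members outside the brightest 10% of genes, and both were lowest of all arrays on water replicate 3, where most members were highest.

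Rpl10l, a retrocopy of Rpl10 that takes over its role in the male germline, had the largest 6-array difference of the set, 1.17 (SE 0.77, adjusted p 0.642 in limma). That value rested on water replicate 3: its level was 4.19, 1.1 and 3.89 on water and 4.09, 4.08 and 4.52 on captopril. Without water replicate 3 the log2 fold change was 0.19 (SE 0.20). The other probe of Rpl10l went the other way on that array: it was highest there, at 3.92 against 3.12 to 3.44 on the other arrays, and gave −0.20 on 6 arrays and 0.03 on 5. Rpl7l1 changed sign, from 0.30 (SE 0.42) on 6 arrays to −0.16 (SE 0.21) on 5, while its relative Rpl7 had 0.13 and 0.33.

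Rpl39l, the germline form of Rpl39, had 0.14 and 0.35 (SE 0.16) on 6 and 5 arrays, beside 0.00 and 0.37 (SE 0.18) for Rpl39. Rpl22l1 had 0.09 and 0.34, beside 0.01 and 0.21 for Rpl22. Rpl36al had −0.07 and 0.25, beside 0.01 and 0.30 for Rpl36a. Rps27l, a p53-responsive relative of Rps27, had −0.25 and 0.06, beside −0.02 and 0.36 for Rps27. Rps4l had −0.18 and −0.15 (SE 0.14). It was at 3.75, 3.78 and 3.62 on water and at 3.55, 3.49 and 3.58 on captopril, a small gap in which no array crossed over. Ribosomal protein genes have many near-identical processed copies, and whether a probe named for a copy also detects RNA of its parent gene was not tested.

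**Figure D2:**
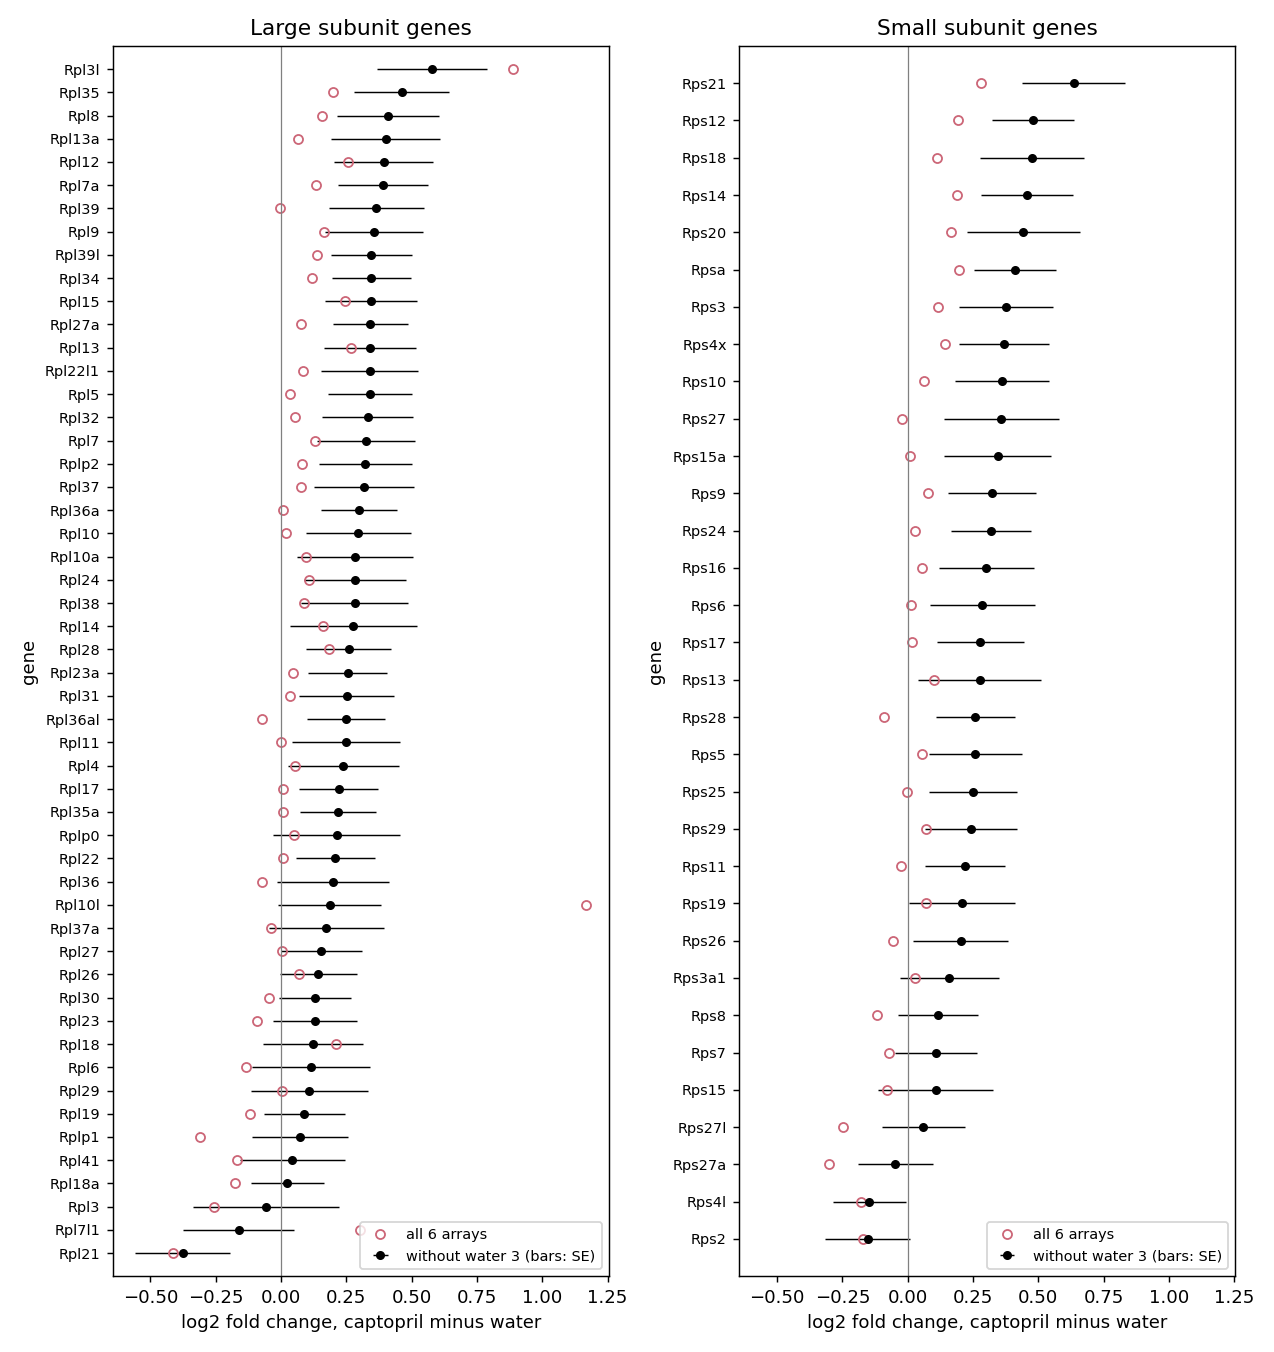
Log2 fold change (captopril minus water) of each of the 52 large-subunit and 32 small-subunit genes, ordered by the value without water replicate 3 (filled points, bars are the standard error from limma), with the value over all 6 arrays (open red points). Most filled points lie between 0.1 and 0.5, and 80 of 84 lie to the right of their open point, while Rpl10l, Rpl3l, Rpl7l1 and Rpl18 show the reverse.

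Other bright genes had differences on the same side as the members without water replicate 3. The brightness of a gene here is the signal of its probe, which also depends on the probe. In the brightest 10% of genes, which holds 82 of the 84 members, the 1404 other genes had a median of 0.15 on 5 arrays, with 79.4% positive. In the brightest 2%, the 235 other genes had a median of 0.22 with 93.6% positive, and the 63 members there had 0.28 with 61 positive. On 6 arrays the 1404 genes had a median of −0.03 with 45.4% positive, on the other side of 0 from the members, and the 235 genes a median of 0.04. The part of brightness in the members' values was not tested.

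**Figure D3:**
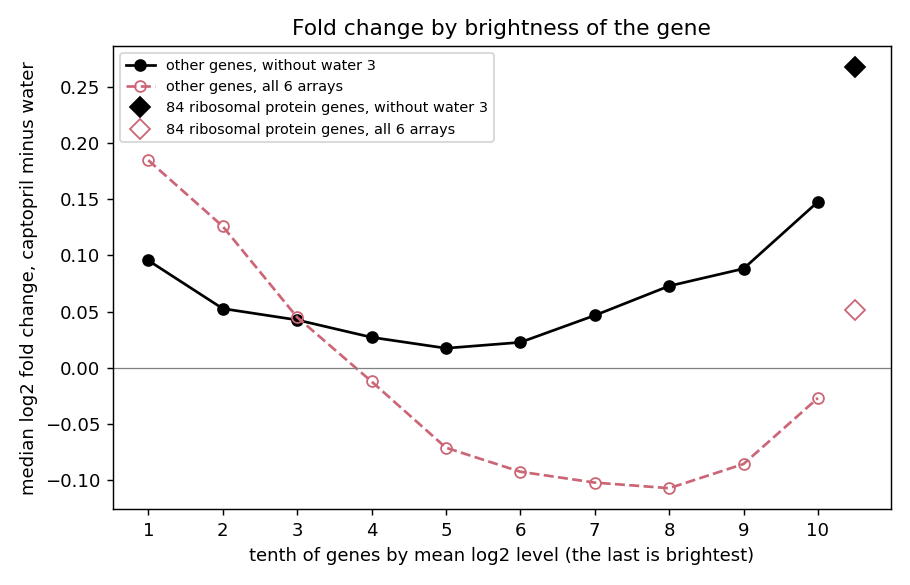
Median difference, captopril minus water on the log2 scale, of the genes outside the set in each of 10 equal bins of genes by mean log2 level, without water replicate 3 (filled circles) and on all 6 arrays (open circles), with the medians of the 84 ribosomal protein genes at the right (diamonds, 0.27 and 0.05). Without water replicate 3 the other genes fall from 0.10 in bin 1, the dimmest, to 0.02 in bin 5 and rise to 0.15 in the brightest bin. On 6 arrays bin 1 is the highest, at 0.18.

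Of the 84 members, 63 had an entry in the promoter table, with 75 start windows from 250 bases before to 50 after the start. A TOP run, defined as a cytosine followed by at least 4 pyrimidines and beginning within 5 bases of the annotated start, was found on the transcript strand in 40% of member windows and in 18.3% of all 32851 windows. On the other strand it was found in 13.3% and 21.4%. By this rule the first cytosine could lie inside a longer run of pyrimidines, as in Rpl35. The element CCGGAAG was found on either strand in 36.0% of member windows against 8.86% of all. AAGATGG, a core of the YY1 motif, was found in 16.0% against 6.34%. TATAAA was found in 9.33% against 13.6%.

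Members with and without these letters had close values. The 28 genes with a TOP run by the rule above had a median log2 fold change of 0.33 on 5 arrays, with 27 positive. The 35 without one had 0.25, with 34 positive. A gene without one by this rule may still have a pyrimidine run nearby, as Rps12 does beyond the allowed 5 bases. The 26 genes with CCGGAAG and the 37 without both had a median of 0.28. The 21 genes without an entry had 0.22, with 17 positive. On 6 arrays the medians were 0.08 with and 0.05 without a TOP run, 0.05 with and 0.07 without CCGGAAG, and 0.01 without an entry. These are descriptions of the annotated starts, and no test was made of the difference.

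Probes of the same gene did not always give the same direction. The 170 passing member probes had a median of 0.25 on 5 arrays with 153 positive, and 0.04 on 6 arrays with 109 positive. Of the 51 genes with several passing probes, 12 had both signs on 5 arrays. The same counts over all probes and genes of the array are not given here. Rpl31 ranged from −0.95 to 0.25 over its probes and Rpsa from −0.70 to 0.42. For Rps2 the brightest probe gave −0.15 and the other 0.42, so the negative value of that gene depends on the probe. Rpl21 had 0.03 on 1 of its 3 probes and negative values on the others. The sequences of the probes were not used here, so which transcripts or copies each one detects is not given.

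**Figure D4:**
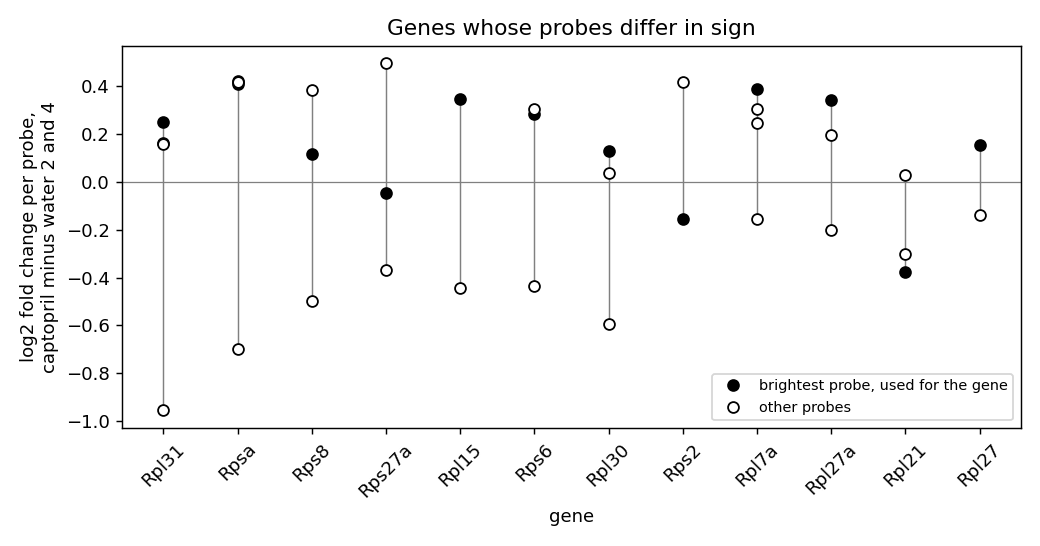
Log2 fold change (captopril minus water replicates 2 and 4) of each probe for the 12 ribosomal protein genes whose probes differ in sign, with the brightest probe, used for the gene, filled. In Rps2, Rps27a and Rpl21 the filled point is below 0 and another probe is above it, and in the other 9 genes the filled point is above 0.

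Neighbouring genes of the pathway were mixed. Fau encodes a small-subunit protein fused to a ubiquitin-like domain, and Rack1 is a scaffold on the small subunit. Fau was at 5.74, 6.14 and 5.55 on water replicates 2, 3 and 4 and at 6.11, 6.01 and 6.13 on captopril, and differed by 0.44 (SE 0.15) on 5 arrays, at an adjusted p of 0.189 in limma. On 6 arrays Fau had 0.27 (SE 0.24). Rack1 had 0.27 (SE 0.22) on 5 arrays and 0.05 (SE 0.30) on 6, and its groups overlapped in both. None of the lists that follow had a gene past an adjusted p of 0.05 in limma in either comparison.

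Translation factors and other messenger RNAs with TOP motifs, 20 of 21 listed measured, had a median of 0.15 on 5 arrays with 17 positive, and 0.03 on 6. Of these, Eif4b, which helps unwind the messenger RNA leader, had 0.49 (SE 0.16, adjusted p 0.188), and Btf3, part of the nascent-chain complex at the tunnel exit, had 0.38 (SE 0.15), with 0.33 (SE 0.24) and 0.04 (SE 0.32) on 6 arrays. The initiation factor subunits Eif3f and Eif3m had opposite signs, 0.37 (SE 0.17) and −0.43 (SE 0.28) on 5 arrays and 0.84 (SE 0.42) and −0.58 (SE 0.32) on 6. Eef1g, an elongation factor subunit, had 1.80 on 6 arrays and 0.13 on 5, since its water replicate 3 array read −0.37 and the others 4.49 to 4.86.

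Ribosome biogenesis factors, all 40 measured, had a median of 0.06 on 5 arrays with 27 positive, near that of all genes, and −0.03 on 6. Pes1, needed to process the large-subunit RNA, was at 1.36, 1.53 and 1.22 on water and at 0.54, 0.41 and 0.99 on captopril. Its log2 fold change was −0.64 (SE 0.21, adjusted p 0.175 in limma) on 5 arrays and −0.72 (SE 0.25) on 6, without overlap of the groups. Nop58, a core protein of the RNPs that methylate ribosomal RNA, had −0.52 (SE 0.17) and −0.39. Its partner Fbl, the methyltransferase, had 0.38 (SE 0.18) and −0.05. Wdr43, of the small-subunit processome, had −0.64 (SE 0.40) on 5 arrays and −0.88 (SE 0.42) on 6.

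In the list of the mTORC1 and S6 kinase pathway, 18 of 19 genes were measured, with a median of 0.06 on 5 arrays and 12 positive, and −0.03 on 6 arrays with 8 positive. Both Myc genes, which drive transcription of ribosomal components, belong to it. Myc was at −1.46, 0.18 and −1.11 on water replicates 2, 3 and 4 and at −0.29, −0.47 and −0.47 on captopril. It had the smallest adjusted p of the list on 5 arrays, 0.074 in limma, with a log2 fold change of 0.88 (SE 0.17). On 6 arrays the fold change of Myc was 0.39 (SE 0.42). Mycn was at 1.70, 2.68 and 1.59 on water and at 1.15, 1.17 and 0.88 on captopril, all below the water arrays, with −0.58 (SE 0.16, adjusted p 0.135) on 5 arrays and −0.92 (SE 0.33, adjusted p 0.589) on 6. Larp4, a poly(A)-binding regulator, had −0.46 (SE 0.17) on 5 arrays and −0.75 (SE 0.31) on 6. Rps6kb2, a kinase of Rps6, had 0.54 (SE 0.19) and 1.73 (SE 0.92). Its probe passed the background flag on 5 arrays, and water replicate 3 read −4.91 where the others read −1.40 to −0.50.

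The 76 mitochondrial ribosomal protein genes, which build the separate ribosome of that organelle, had a median of 0.06 on 5 arrays with 46 positive, and −0.05 on 6 arrays with 28 positive. The genes named for their small p were all negative on 5 arrays: Mrps24 at −0.69 (SE 0.29), Mrpl28 at −0.56 (SE 0.15), Mrpl22 at −0.56 (SE 0.23), Mrpl50 at −0.50 (SE 0.15) and Mrpl15 at −0.48 (SE 0.19). On 6 arrays, Mrps24, Mrpl22, Mrpl50 and Mrpl15 had −0.83, −0.70, −0.83 and −0.56. The direction of Mrpl28 turned, to 0.98 (SE 1.18), with water replicate 3 at −1.79 and the other arrays at 2.22 to 2.90. The smallest adjusted p among these on 5 arrays was 0.123 in limma. The difference between the cytosolic and the mitochondrial set was not tested.

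The cultures carried RNA of more than stem cells. Of 19 spermatogonial stem cell markers 18 were measured, Pax7 being the exception, and all 18 feeder fibroblast markers were measured. Thy1 is in both of these lists and enters the values of both. Of 15 Sertoli and Leydig cell markers 6 were measured, with Amh, Fshr, Cyp17a1, Cyp11a1, Insl3 and Lhcgr among those not well above background, and of 8 leukocyte markers 7. The fibroblast markers' median level against each gene's own median was −0.03, 0.77 and −0.19 on water replicates 2, 3 and 4 and −0.05, −0.09 and 0.06 on captopril. The stem cell markers stood at −0.02, 0.47 and −0.15 and at −0.03, 0.01 and 0.26. Sertoli and Leydig markers stood at −0.17, 0.95 and −0.11 and at −0.09, −0.07 and 0.08. Leukocyte markers stood at −0.01, 0.29 and 0.04 and at 0.01, −0.02 and 0.11. In every marker list, as in the members, water replicate 3 was the highest array and captopril replicate 4 the next. The log2 of the summed fibroblast signal ranged from 7.75 to 8.70 on water and from 7.79 to 8.04 on captopril, and that of the stem cell markers from 6.22 to 6.88 and from 6.35 to 6.72. For Sertoli and Leydig markers it was 1.99 to 2.89 and 1.91 to 2.31, and for leukocyte markers 5.19 to 6.07 and 5.43 to 5.83. Their part in the result was not tested.

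How the arrays were scaled changed the size of the set's median and, on 6 arrays, its sign. When arrays were scaled by their median, the members' median was −0.25 on 6 arrays, with 3 positive, but that of all genes moved to −0.33, so the members stayed 0.08 above it. Under quantile normalization the members' median was −0.01 on 6 arrays with 41 positive, and 0.06 on 5 arrays with 55 positive. Under cyclic loess it was 0.10 and 0.12. Relative to the median of all genes, the members were 0.20 higher on 5 arrays with the 75th percentile, 0.20 with the array median, 0.16 with cyclic loess and 0.06 with quantile normalization.

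**Figure D5:**
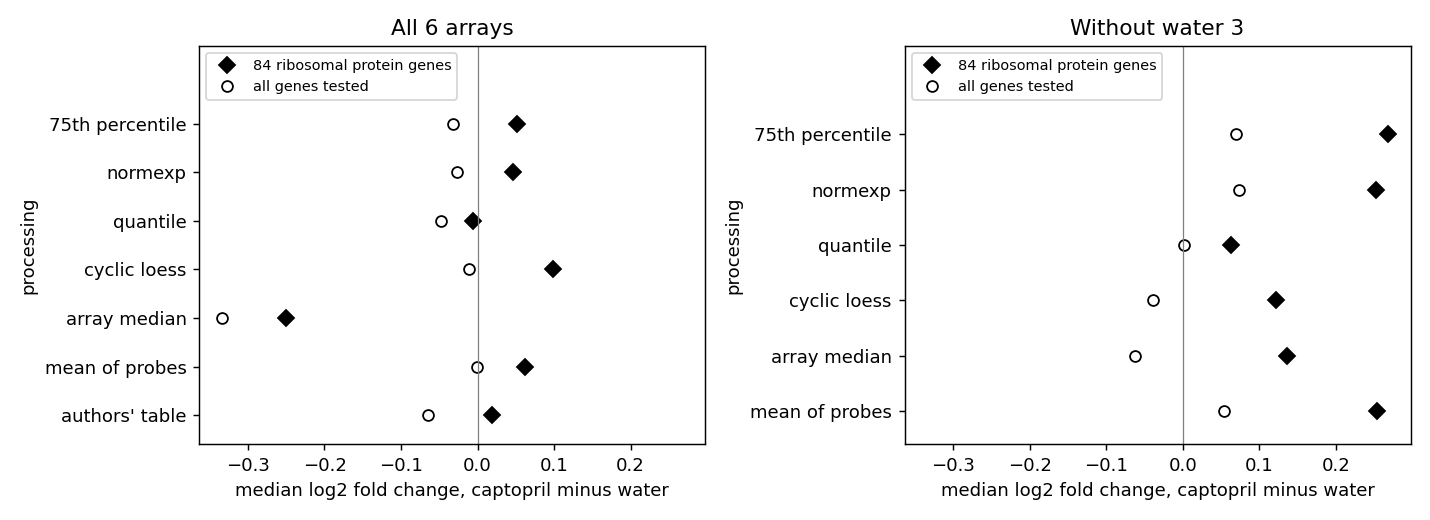
Median log2 difference between captopril and water for the 84 ribosomal protein genes (diamonds) and for all genes tested (circles) under the ways of processing named on the axis, with all 6 arrays (left) and without water replicate 3 (right). The diamond lies to the right of the circle in every case shown, by 0.04 (quantile) to 0.11 (cyclic loess) on 6 arrays.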

How the data were processed

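RNA of 6 cultures was measured on 1-colour Agilent arrays. Spot intensity values were made by the authors with Agilent Feature Extraction, which per the file headers was version 11.5.1.1 and per the submitters' processing notes 10.7. Per the headers it subtracted background and set flags. The deposited series table holds the authors' log2 values, which matched log2 of the processed signal within 0.01 of a constant for 100% of probes. Its steps are not given in the sources used here, its column medians were −4.25 to −3.63 and its column 75th percentiles within 0.001 of 0, so its centring is close to the scaling used here. It served as an alternative.

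From the processed signal, log2 minus the 75th percentile of each array (spots neither controls nor outliers) was computed. Spots of a probe were averaged. RefSeq accessions named 26762 of 55681 probes through assembly GRCm38.p6, and 98.0% of curated messenger RNA accessions matched. The array design follows an older build, so no gene coordinates are given from it. The brightest probe well above background on at least 3 arrays stood for a gene. Tests between groups used lmFit and eBayes of limma 3.58.1 under R 4.3.3 (Benjamini-Hochberg, two-sided, threshold 0.05), which was tested on simulated data. Python 3.11.15, pandas 2.3.3, numpy 2.4.6 and matplotlib 3.10.9 made tables and plots. The number of arrays, 3 per group, limits the precision.

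Named members were those past the threshold, the 5 highest and 5 lowest in each comparison, the stalk genes, Rpsa, members with known roles outside translation, in disease or on the X chromosome, and the copies with their parents. From each pathway list up to 3 genes of smallest p per comparison were named. Rps14, Rpl18 and the genes named for disagreeing probes were added after their values were seen. Members and lists were chosen with earlier results of these data known. Alternatives covered background correction, normalization, scaling, filters, probe choice, blocks and arrays left out.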

Additional observations from a re-analysis of the deposited data

How the results depend on the processing

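No ribosomal protein gene passed an adjusted p of 0.05 in limma under any of the 30 alternatives. When the median of each array replaced its 75th percentile, the members' median was −0.25 with 3 positive. Without water replicate 3, the genes called over the whole array numbered 92, and also 92 with normexp background correction, 92 without probes with a saturated spot, 137 with the mean of a gene's probes and 39 with scaling by the array median. They numbered 0 with quantile normalization or cyclic loess. Leaving out arrays in turn, also together with water replicate 3, gave 0 to 92 genes called, 23 to 79 positive members and member medians of −0.11 to 0.34. The number of positive members was 23 without water replicate 4, 27 without captopril replicate 4 and 30 without water replicate 2. Of all genes, 39.5%, 42.1% and 42.3% were positive in these fits, a larger share than of the members. The members' median was still above that of all genes in each, by 0.03, 0.02 and 0.04. The authors' table gave a median of 0.02 with 46 positive. Slide row as a block, which leaves water replicate 4 against captopril, gave 0.34 with 78 positive. Deviations from the group means correlated at −0.02, 0.02 and −0.19 between same-numbered samples. With 3 arrays per group and water replicate 3 standing apart, these values cannot decide whether same-numbered samples were paired. The fit with the replicate block gave 0 genes called, 59 positive members and a median of 0.05. The sign of a named member changed in 154 of 960 pairs of gene and alternative. The cause of these changes was not tested.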

Other observations

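On water replicate 3 most member probes were higher and a few were far lower. Against the median of the other 5 arrays, the 170 passing probes had a median deviation of 0.57 (interquartile range 0.38 to 0.69), and 154 were above 0. By contrast, 9 probes of 9 genes were lower by more than 1 on the log2 scale. The probe used for Rpl10l had −2.99. A probe of Rps27a, a ribosomal protein made as a ubiquitin fusion, had −2.42, while the brightest probe of that gene was highest on the same array, at 5.61 against 4.71 to 4.90 on the others. Lower probes of Rpl7a (−2.04), Rpsa (−2.0), Rps18 (−1.79), Rps2 (−1.54) and Rps6 (−1.12) also went against the brightest probe of their gene or against most members. Rpl3l (−1.34) and Rpl7l1 (−1.15) have 1 probe each. These probes were picked for their values, and the cause was not tested.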
